A study of Homo sapiens with 4 samples.

Results

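Cytochrome P450s and other drug-metabolising enzymes were described in PLC8024, a cell line from human hepatocellular carcinoma, by a list of 45 genes: 26 P450 genes and 19 genes of conjugating enzymes, other oxidising and hydrolysing enzymes, a methyltransferase, receptors and the P450 reductase. The members were the probe sets that the array's annotation assigns to 1 listed gene, and of several for 1 gene, that with the highest RMA mean of the 2 populations stood for it. This gave values for 39 of the 45 genes, out of 19775 genes in all. CYP2C18, CYP2C19, CYP3A7, UGT2B7, UGT2B10 and NR1I2 had no such probe set and were not analysed as genes here. The groups were PLC8024 cells sorted by flow cytometry as CD133+ and as CD133-. CD133 is a membrane glycoprotein by which tumour-initiating cells of the liver are sorted, and both populations came from the same line. Each population was sampled once (1 CD133+ and 1 CD133-) and deposited as RMA values on a log2 scale and as MAS5 intensities on a linear scale, so no difference has an error between cultures or sorts and no test was possible.

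Liver cells clear drugs and other lipophilic compounds in steps. P450s, which are haem enzymes of the endoplasmic reticulum or mitochondria, and other oxidising enzymes add or expose a reactive group, and transferases then attach glucuronic acid or sulfate so that the product can be excreted. Many of these genes are transcribed under ligand-activated receptors such as the aryl hydrocarbon receptor, the pregnane X receptor (NR1I2) and the constitutive androstane receptor (NR1I3), and are known to be lower in cultured hepatoma lines than in liver.

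In the arrays as a whole, both populations had RMA values for hepatocyte genes above the floor described next, at 14 of 14 markers, and the transcript of CD133, PROM1, had RMA values of 10.35 in CD133+ against 6.04 in CD133- cells. ALB and APOA1, which encode albumin and an apolipoprotein, were counted as lower in CD133+ among these 14 markers. Of 7 hepatoma and progenitor markers, 6 were above the floor. AFP, alpha-fetoprotein (RMA values of 9.05 in CD133+ against 11.83 in CD133-), and GPC3, glypican-3 (9.74 in CD133+ and 10.97 in CD133-), were counted as lower. PROM1 and KRT19, a keratin of bile duct cells (7.33 in CD133+ and, under the floor, 4.38 in CD133-), were counted as higher. PROM1 encodes the protein used for the sort, so its count is not independent of the sort. KRT8 and KRT18, keratins of hepatocytes, differed by -0.28 and -0.33 in RMA. Of markers of other cells, 3 of 5 leukocyte genes, 1 of 5 endothelial genes, 3 of 7 fibroblast genes, 2 of 2 erythroid genes and 4 of 5 intestinal genes were above that floor, while the defining leukocyte gene PTPRC (RMA values of 3.01 in CD133+ against 2.94 in CD133-) and the endothelial gene CDH5 (3.23 in CD133+ and 3.06 in CD133-) were under it. The summed MAS5 intensity was 10457 in CD133+ against 4187 in CD133- for the leukocyte list, mostly from LYZ, and 303.3 in CD133+ against 959.1 in CD133- for the endothelial list, mostly from PECAM1. The part of these markers in the results below was not tested. Since each value is a mean over a sorted population, fewer cells with a transcript and less transcript per cell cannot be told apart.

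Detection calls were not used here, so a floor was set on the RMA value. A member was taken as above the floor when its value, in the population where it was higher, reached the median over all probe sets of that column, which was 5.16 in CD133+ and 5.14 in CD133- cells. By this rule 27 of the 39 measured members were above the floor and 12 were not. Genes of other tissues passed it too, such as HBB, a haemoglobin gene, at 6.07 in both populations, and CDX2, an intestinal transcription factor, at 5.65 in CD133+ and 5.46 in CD133-, so a value above the floor does not by itself show expression. This holds most for the 11 members between the floor and the 75th percentile of the column. Of the 27, 25 reached it in both populations, CYP3A5 in CD133+ only and SULT1C2 in CD133- only, and the last 2 could therefore pass only through the population where they were high. A second reference was the 95th percentile of 107 probe sets of olfactory receptor genes, which liver cells are not known to use, at 5.43 in CD133+ and 5.52 in CD133-; 26 of the 27 reached it and CYP3A5 did not. The 75th percentile of each column, at 6.94 in CD133+ and 6.95 in CD133-, was reached by 16 members. In MAS5, 26 of the 27 also reached the median of their column, and CES1 did not.

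The 12 members under the floor were the P450s CYP1B1, CYP2B6, CYP2C8, CYP3A43, CYP4A11, CYP7A1, CYP8B1 and CYP39A1, the glucuronosyltransferase UGT2B15, the sulfotransferases SULT1E1 and SULT2A1, and the receptor NR1I3. Their RMA values lay between 2.17 and 5.09, and their RMA differences, CD133+ minus CD133-, between -0.22 and 0.36. Several of these are classic hepatocyte genes: CYP7A1 and CYP8B1 act in bile acid synthesis, CYP2C8 and CYP2B6 in drug oxidation, and SULT2A1 sulfates steroids and bile acids. CYP4A11, CYP39A1 and SULT2A1 reached the column median in MAS5 while missing it in RMA. A probe set's brightness depends on its probes, so a value under the floor is a statement about that probe set and sets no order between genes.

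**Figure D1:**
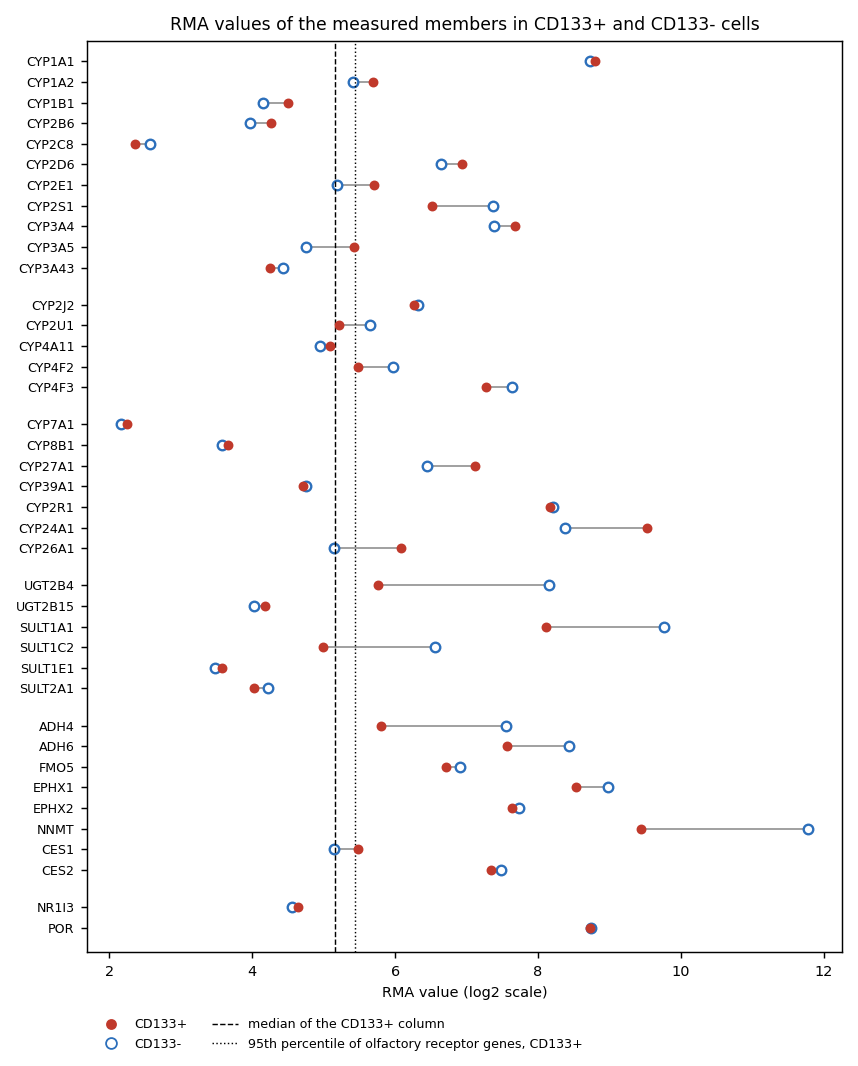
RMA values (log2 scale, x axis) of the 39 measured members in CD133+ (filled) and CD133- cells (open), 1 array each, grouped by role; the dashed line is the column median of 5.16 and the dotted line the olfactory receptor level of 5.43, both for CD133+. The longest lines, for UGT2B4, NNMT, ADH4, SULT1A1 and SULT1C2, all have the CD133+ point on the left.

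Across the 27 members above the floor, 5 were lower in CD133+ by at least 2-fold in both RMA and MAS5, and none was higher by that rule. The 5 were UGT2B4, SULT1A1, SULT1C2, ADH4 and NNMT. Over all 13116 genes above the floor the same rule counted 1.09% as lower and 2.25% as higher in CD133+. The members' 5 of 27 is 18.5%, with no test of that difference. The list and the rule were chosen with earlier results of these data known, so these shares are a description only. When the floor had to be reached in both populations, 4 of 25 members were lower (UGT2B4, SULT1A1, ADH4 and NNMT), against 0.869% of all 12427 such genes, and none was higher, against 1.71%. The RMA differences of the 27 members ran from -2.39 to 1.15 with a median of -0.09, beside 0.00 over all genes above the floor, and 17 of 27 (63%) were below 0, beside 49.9%. The median had the other sign in MAS5, at 0.05.

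The counted genes were all outside the P450 family. None of the 15 P450s above the floor was counted in either direction, beside 2.25% higher and 1.09% lower over all genes above it. At such low shares a list of 15 genes, or a smaller group of it below, may hold none. Of the 15 P450s, 9 had an RMA difference above 0 and 6 below 0 (12 above 0 in MAS5), and their median in RMA was 0.28. Of the 12 other members above the floor, 5 were counted as lower, 11 had an RMA difference below 0 (10 in MAS5), and their median in RMA was -0.65. The list was divided in this way after the values were known, so the division is a description.

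**Figure D2:**
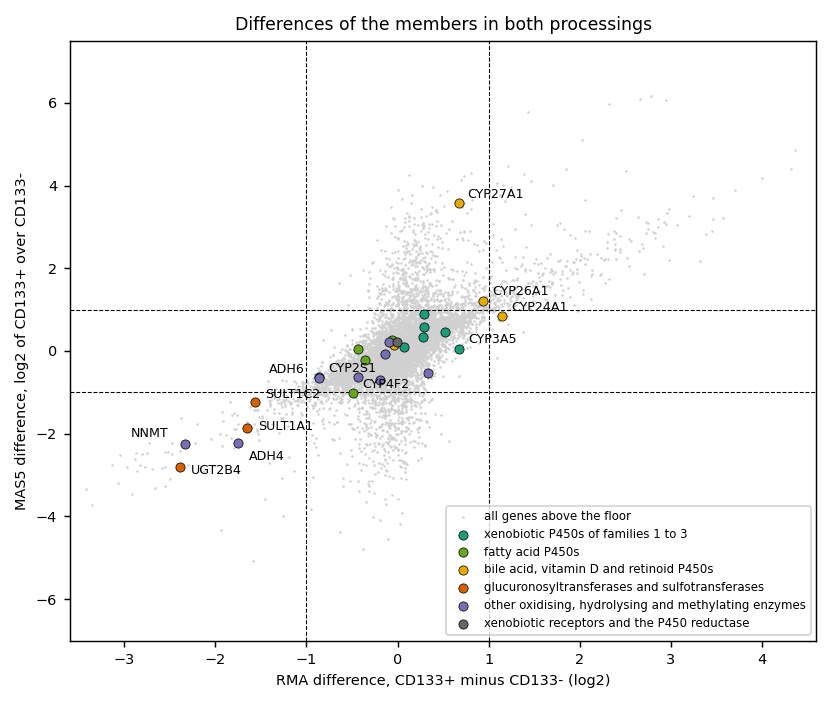
RMA difference (x axis) against the log2 MAS5 ratio (y axis), CD133+ over CD133-, for the 27 members above the floor (coloured by role) and for all 13116 genes above it (grey); dashed lines mark 2-fold. The 5 members in the lower left corner are lower in CD133+ in both processings, and no member lies in the upper right corner.

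Of the transferases, UGT2B4, which joins glucuronic acid to bile acids and steroids, had the lowest RMA difference of any member. Its RMA value was 5.76 in CD133+ and 8.15 in CD133- cells, and its MAS5 intensity was 171 in CD133+ and 1188 in CD133- cells. The gene was thus 5.23-fold lower in CD133+ in RMA and 6.93-fold lower in MAS5, at rank 27 from the lowest RMA difference among the 13116 genes. It has 1 probe set. UGT2B genes are close in sequence, and a probe set of one may take signal of another. UGT2B15, of the same family, was under the floor with RMA values of 4.17 in CD133+ against 4.03 in CD133-.

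SULT1A1, the sulfotransferase that conjugates phenols, had an RMA value of 8.11 in CD133+ against 9.76 in CD133- cells and MAS5 intensities of 1003 in CD133+ and 3648 in CD133-. It was 3.14-fold lower in CD133+ in RMA and 3.64-fold lower in MAS5. Its probe sets disagreed. The other one with the ending _x_at, which marks probe sets whose probes can match more than 1 sequence, gave the same RMA difference of -1.65, whereas the third, without that ending, had RMA values of 6.16 in CD133+ against 5.97 in CD133-, a difference of 0.19. SULT1A2 and SULT1A3, near-identical relatives, had no value of their own here, so the difference cannot be assigned to SULT1A1 alone.

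SULT1C2, a sulfotransferase of small phenolic compounds, had an RMA value of 4.98 in CD133+, under the floor, and 6.55 in CD133- cells. Its MAS5 intensities were 98.7 in CD133+ and 231 in CD133-, and the differences were -1.57 in RMA and -1.23 in MAS5. In RMA its next probe set, also above the floor, differed by -0.99, and the remaining pair, both under the floor, by 0.03 and -0.41. Since the CD133+ value was under the floor, no fold is given. SULT1E1, the oestrogen sulfotransferase, and SULT2A1 were under the floor in both populations.

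NNMT, which methylates nicotinamide and related pyridines with S-adenosylmethionine, had the lowest difference among the remaining enzymes. Its RMA value was 9.44 in CD133+ and 11.78 in CD133- cells, and its MAS5 intensity was 3174 in CD133+ and 15160.5 in CD133- cells, which is 5.06-fold and 4.78-fold lower in CD133+. All 3 of its probe sets were above the floor, and they gave RMA differences of -2.62, -2.34 and -1.88. Among the 4 counted members with more than 1 probe set, NNMT was the one in which every probe set was at least 2-fold lower in both processings.

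ADH4, an alcohol dehydrogenase of liver that also oxidises retinol, had an RMA value of 5.80 in CD133+ against 7.55 in CD133- cells. Its MAS5 intensities were 214 in CD133+ and 1007 in CD133-, so it was 3.36-fold lower in RMA and 4.71-fold lower in MAS5. The size rested on 1 probe set: the second one above the floor had an RMA difference of -0.44, and the remaining pair, under the floor, had -0.28 and -0.13. The gap between the 2 probe sets above the floor with the highest RMA means was 1.31 for ADH4. It was the widest such gap among the 11 members that had more than 1 probe set above the floor. The SD of such gaps over 6170 genes was 0.35. Over all probe sets above the floor SULT1A1 spread more widely, from -1.65 to 0.19.

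ADH6, a neighbouring gene of the same cluster, had RMA values of 7.57 in CD133+ against 8.43 in CD133- and MAS5 intensities of 855 in CD133+ and 1352 in CD133-. Its differences of -0.86 in RMA and -0.66 in MAS5 missed the rule, and its second probe set had an RMA difference of -0.82. EPHX1, the microsomal epoxide hydrolase, had RMA values of 8.54 in CD133+ against 8.97 in CD133-. The RMA values of EPHX2, the soluble epoxide hydrolase, were 7.64 in CD133+ and 7.73 in CD133-, while its MAS5 intensities of 467 in CD133+ and 402 in CD133- ran the other way. Those of FMO5, a flavin-containing monooxygenase, were 6.71 in CD133+ and 6.90 in CD133-. CES1 and CES2 are carboxylesterases that open ester prodrugs. CES1 had RMA values of 5.48 in CD133+ against 5.14 in CD133- with MAS5 intensities of 56.4 in CD133+ and 80.8 in CD133-, opposite in direction, and CES2 had RMA values of 7.34 in CD133+ against 7.48 in CD133-, with a difference of 0.11 in the 1 probe set without the ending _x_at.

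**Figure D3:**
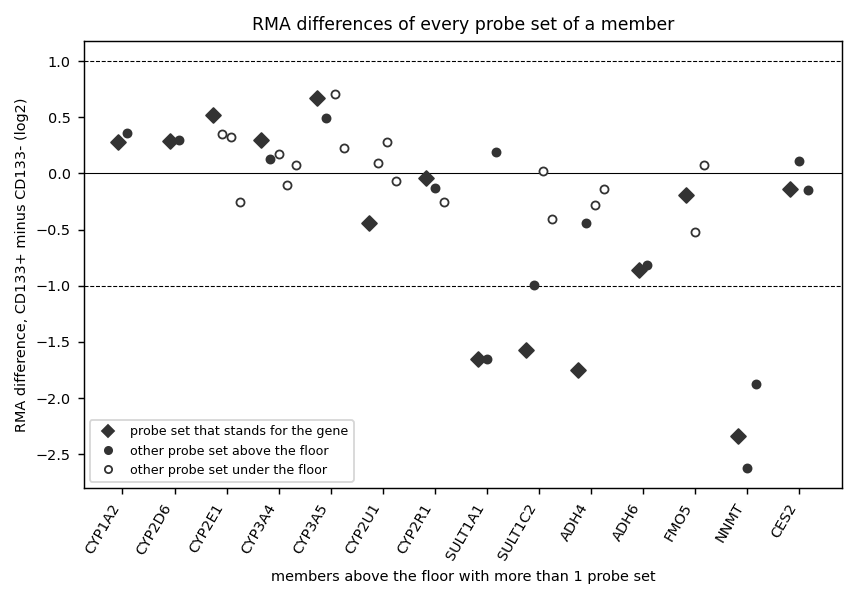
RMA difference, CD133+ minus CD133- (log2, y axis), of every probe set of the members above the floor that have more than 1; diamonds stand for the gene, filled points are above the floor and open points under it, and dashed lines mark 2-fold. The 3 probe sets of NNMT lie together between -2.62 and -1.88, whereas those of SULT1A1, SULT1C2 and ADH4 spread upwards.

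Promoter sequence is shown for the counted genes that had an entry in the RefSeq promoter table (GRCh38.p14), ADH4 and SULT1C2, and for CYP1A1, the P450 most used as a readout of the aryl hydrocarbon receptor, whose values hardly differed. Entries for 32 members were used. They include genes under the floor, and also CYP2C19, CYP3A7, UGT2B7, UGT2B10 and NR1I2, which had no value of their own here. Each line gives the 250 bases before the gene's start, 5′ to 3′ on the gene's strand, with these letters in capitals wherever found on either strand: AGGTCA (a half-site of nuclear receptors), TTGCNNAA (a C/EBP-type motif), GTTAAT (part of an HNF1-type motif), GCGTG (the core of the aryl hydrocarbon receptor motif) and TATAAA. The windows are chr4:99144298-99144547 on the minus strand, chr2:108288645-108288894 on the plus strand and chr15:74725529-74725778 on the minus strand.
ADH4: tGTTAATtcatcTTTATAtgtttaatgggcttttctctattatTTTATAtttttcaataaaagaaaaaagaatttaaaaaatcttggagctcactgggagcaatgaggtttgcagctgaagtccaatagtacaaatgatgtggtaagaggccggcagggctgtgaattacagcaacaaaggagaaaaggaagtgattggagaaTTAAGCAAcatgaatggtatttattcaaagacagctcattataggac
SULT1C2: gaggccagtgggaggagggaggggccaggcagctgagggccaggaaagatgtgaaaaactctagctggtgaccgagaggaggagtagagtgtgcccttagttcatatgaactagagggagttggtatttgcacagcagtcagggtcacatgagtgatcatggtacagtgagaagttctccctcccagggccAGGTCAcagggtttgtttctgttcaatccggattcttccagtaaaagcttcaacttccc
CYP1A1: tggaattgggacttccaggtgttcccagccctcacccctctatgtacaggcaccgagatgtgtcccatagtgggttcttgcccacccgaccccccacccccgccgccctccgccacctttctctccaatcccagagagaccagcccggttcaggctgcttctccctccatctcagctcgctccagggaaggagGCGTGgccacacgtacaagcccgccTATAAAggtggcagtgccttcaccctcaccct

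Counted back from the start, the first base of the C/EBP-type letters in ADH4 stood at -47, that of AGGTCA in SULT1C2 at -59, and those of GCGTG and TATAAA in CYP1A1 at -57 and -32. Over the 32 member windows, AGGTCA was found in 9, TTGCNNAA in 4, GTTAAT in 6, GCGTG in 3 and TATAAA in 12. Over all 27305 windows of this length the shares were 12.2% for AGGTCA, 9.12% for TTGCNNAA, 6.24% for GTTAAT, 31.9% for GCGTG and 11.2% for TATAAA. These are matches of letters, not binding sites, and no test was made of them.

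Of the xenobiotic P450s of families 1 to 3, 7 of 11 measured genes were above the floor and none was counted, and 6 of the 7 had an RMA difference above 0. CYP1A1, which oxidises polycyclic aromatic hydrocarbons, had RMA values of 8.80 in CD133+ against 8.72 in CD133- and MAS5 intensities of 1849 in CD133+ and 1732 in CD133-. AHR, the receptor that induces it, had RMA values of 9.63 in CD133+ against 9.50 in CD133-. CYP1A2, the caffeine-oxidising liver P450, had RMA values of 5.68 in CD133+ against 5.41 in CD133-. CYP3A4, which handles a large share of prescribed drugs in liver, had RMA values of 7.67 in CD133+ against 7.38 in CD133- and MAS5 intensities of 312 in CD133+ and 167 in CD133-. That probe set is an _x_at one; the second above the floor had RMA values of 5.69 in CD133+ against 5.56 in CD133-, and the other 3 were under it.

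CYP3A5, a close relative of CYP3A4, had RMA values of 5.42 in CD133+ against 4.75 in CD133-, the second under the floor. Its differences were 0.68 in RMA and 0.06 in MAS5, so the processings did not give the same size. A second probe set of CYP3A5, also above the floor in CD133+ only, differed by 0.50 in RMA and by 1.03 in MAS5. CYP2D6, which oxidises many antidepressants and opioids, had RMA values of 6.93 in CD133+ against 6.64 in CD133-, with MAS5 intensities of 136 in CD133+ and 90.8 in CD133-. The other probe set of CYP2D6, also above the floor, differed by 0.30 in RMA but by 2.62 in MAS5. Its MAS5 intensities were 283 in CD133+ and 45.9 in CD133-, the latter under the column median of 86.1. CYP2E1, which oxidises ethanol and paracetamol, had RMA values of 5.71 in CD133+ against 5.19 in CD133-, and its 3 other probe sets were under the floor. CYP2S1, a P450 found mainly in epithelia outside the liver, was the one gene of this group with a negative difference, at RMA values of 6.52 in CD133+ against 7.38 in CD133- and MAS5 intensities of 374 in CD133+ and 578 in CD133-. At differences of -0.86 and -0.63 it missed the rule.

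The fatty acid P450s, which make epoxides or hydroxy derivatives of arachidonic acid and its products, had 4 of 5 genes above the floor, none counted and all 4 with an RMA difference below 0, but 2 of the 4 with a MAS5 difference above 0. CYP2J2, the arachidonic acid epoxygenase, had RMA values of 6.26 in CD133+ against 6.32 in CD133- and, in the other direction, MAS5 intensities of 296 in CD133+ and 245 in CD133-. CYP4F3, which hydroxylates leukotriene B4, had 7.28 in CD133+ and 7.63 in CD133-. CYP2U1 had RMA values of 5.21 in CD133+ against 5.65 in CD133-, with MAS5 intensities of 141 in CD133+ and 136 in CD133-, and its difference turned to 0.0143 with the median over its probe sets. CYP4F2, which also clears vitamin K, had RMA values of 5.47 in CD133+ against 5.96 in CD133- and MAS5 intensities of 61.2 in CD133+ and 124 in CD133-, so that its difference was -0.49 in RMA and -1.02 in MAS5. In RMA the differences of these 4 genes, of at most 0.49 in size, lay within the 95th percentile of the gap between the 2 highest probe sets of 1 gene. That percentile was 0.70. Members of other groups lay within it too, such as CYP3A5 at 0.68 and CYP27A1 at 0.67. Such gaps come from the same columns and hold no variation between cultures or sorts.

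Among the P450s of bile acids, vitamin D and retinoids, 3 of the 4 genes above the floor leaned to CD133+ and none met the rule. CYP24A1, the mitochondrial enzyme that inactivates vitamin D, had the highest RMA difference of any member. Its RMA values were 9.52 in CD133+ and 8.37 in CD133-, and its MAS5 intensities were 2426 in CD133+ and 1349 in CD133-. It was 2.21-fold higher in RMA and 1.80-fold higher in MAS5, which missed the rule in MAS5.

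CYP26A1, which breaks down retinoic acid, missed it in RMA instead. Its RMA values were 6.08 in CD133+ and 5.14 in CD133-, which lay at the floor, and its MAS5 intensities were 237 in CD133+ and 102 in CD133-, differences of 0.94 and 1.22. CYP27A1, a mitochondrial sterol hydroxylase of bile acid synthesis, had RMA values of 7.12 in CD133+ against 6.45 in CD133-. Its MAS5 intensities were 509 in CD133+ and 43.0 in CD133-, a log2 difference of 3.57 beside 0.67 in RMA, and the CD133- intensity was under the column median of 86.1. CYP2R1, the vitamin D 25-hydroxylase, had RMA values of 8.17 in CD133+ against 8.21 in CD133-, a difference of -0.04 beside 0.14 in MAS5. CYP7A1, CYP8B1 and CYP39A1, the other bile acid genes of the list, were under the floor in both populations.

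POR, the reductase that passes electrons from NADPH to microsomal P450s, had RMA values of 8.73 in CD133+ against 8.74 in CD133- and MAS5 intensities of 1527 in CD133+ and 1304 in CD133-. Its RMA difference of -0.01 was the one closest to 0 among the 27. NR1I3, the constitutive androstane receptor, had RMA values of 4.64 in CD133+ against 4.55 in CD133-, under the floor. Probe sets annotated to a member together with another gene were left out of the list. There were 8 of them, including the pair for CYP3A7 with its read-through transcript, and their RMA values, between 2.25 and 5.07, were all under the floor.

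Other genes of the pathway, 182 in 7 lists, were set beside the members. Of the 153 measured, 105 were above the floor. Of the differences, 64 (61%) lay below 0, beside 49.9% over all genes above the floor, and their median was -0.11. Over all genes above the floor 2.25% counted as higher and 1.09% as lower, shares that also stand beside the counts of each list below. In CD133+, 2 of the 105 counted as higher and 2 as lower. The lower ones were NAT2 and PPARGC1A. NAT2, an arylamine acetyltransferase, had RMA values of 5.99 in CD133+ against 7.58 in CD133- and MAS5 intensities of 13.1 in CD133+ and 444 in CD133-. PPARGC1A, a coactivator of nuclear receptors in liver, had RMA values of 6.27 in CD133+ against 7.40 in CD133-. The higher ones were SULT1C4, a sulfotransferase, with RMA values of 7.51 in CD133+ against 6.19 in CD133-, and ALDH5A1, succinic semialdehyde dehydrogenase, with 6.78 in CD133+ and 5.63 in CD133-.

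Among the other conjugating enzymes, 1 of 24 genes above the floor was counted in each direction. NAT1, the second acetyltransferase, had RMA values of 6.92 in CD133+ against 7.92 in CD133-, a difference of -0.9995, with -0.94 in MAS5, and narrowly missed the rule. PAPSS2, which makes the sulfate donor of the sulfotransferases, differed by -0.71 in RMA and by -0.99 in MAS5. UGT2B28, another UGT2B enzyme, differed by -0.68 and -0.91.

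Of 17 genes of electron transfer and haem supply, all were above the floor and none was counted. HMOX1, which degrades haem, had RMA values of 8.64 in CD133+ against 9.61 in CD133-, a difference of -0.97 with -1.05 in MAS5. ALAS1, the rate-limiting enzyme of haem synthesis in liver, had RMA values of 9.01 in CD133+ against 9.76 in CD133-, and BLVRB, a biliverdin reductase, 10.34 in CD133+ and 10.78 in CD133-. In the list of other oxidising, reducing and hydrolysing enzymes 1 of 22 was counted, the aldehyde dehydrogenase named above. NQO1, a quinone reductase, had an RMA difference of -0.86, PON3, a lactonase, 0.63, and ALDH1A1, which makes retinoic acid, -0.59.

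Among 27 nuclear receptors and transcription factors above the floor, 20 had an RMA difference below 0 (16 in MAS5) and 1 was counted. In RMA 25 lay within 0.5 of 0, as did 11124 of all 13116 genes above the floor. CEBPA, a transcription factor of many hepatocyte genes, had RMA values of 8.07 in CD133+ against 9.03 in CD133- and a MAS5 difference of -0.95. NCOA1, a coactivator, and ONECUT1, a hepatic transcription factor, had RMA differences of -0.45 and -0.44. Of the remaining P450s, 8 of 13 in the xenobiotic and fatty acid list and 5 of 13 in the sterol, steroid, retinoid and vitamin list were above the floor, and none was counted. CYP27B1, which activates vitamin D, had RMA values of 6.47 in CD133+ against 5.36 in CD133-, a difference of 1.10 with 0.75 in MAS5, so it missed the rule in MAS5 as CYP24A1 did. CYP26B1, a second retinoic acid hydroxylase, differed by 0.19 in RMA and by -1.30 in MAS5, and CYP20A1 by 0.15 and -0.11. CYP4F22, CYP2A7 and CYP2A13 differed by -0.49, 0.27 and 0.27 in RMA and, with the opposite sign, by 0.998, -0.73 and -1.22 in MAS5. Of the hepatocyte uptake carriers 2 of 7 were above the floor, SLCO2B1 at -0.53 in RMA and -0.79 in MAS5, and SLC22A7 at 0.37 in RMA but -0.65 in MAS5.

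**Figure D4:**
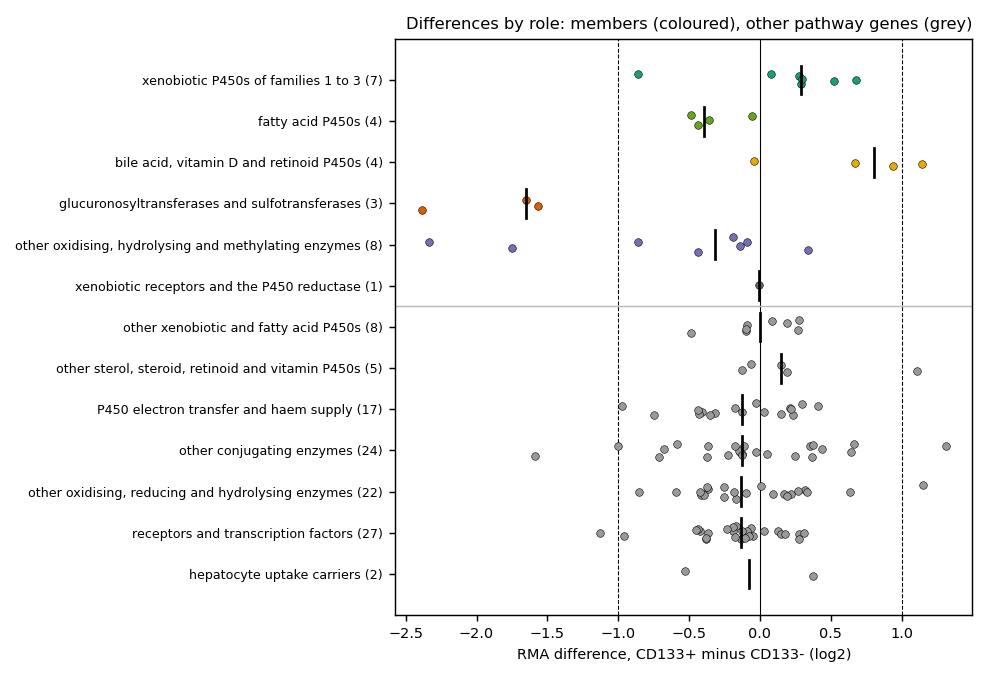
RMA differences, CD133+ minus CD133- (log2, x axis), of the members above the floor by role (coloured) and of the other pathway genes above it by list (grey), each point a gene, with the number of genes in brackets and the median as a bar; dashed lines mark 2-fold. The 3 members that are glucuronosyltransferases or sulfotransferases lie between -2.39 and -1.57. Single grey genes run from -1.59 to 1.31, and the medians of the grey lists lie between -0.13 and 0.15.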

How the data were processed

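Total RNA of both populations was measured on oligonucleotide arrays. The authors deposited MAS5 values as linear intensity and RMA values on a log2 scale, per the labels. The tools named, per the submitters' processing notes, are GCOS, MAS5 and RMA. Their versions, the arrays normalized together and whether both processings share an array were not given in the sources used here. The processings were therefore never used as replicates. The MAS5 columns had trimmed means of 500.1 each, the form of global scaling.

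Of 54675 probe sets, 41097 had 1 gene in GEO's platform annotation, and 41043 of these took their symbol through the gene ID in RefSeq (GRCh38.p14). Differences are RMA CD133+ minus CD133- and the log2 MAS5 ratio. With 1 array a group there is no test, and the number of arrays limits the precision. A gene was counted at 2-fold in both processings, above the floor. The count rule was tested on simulated data. It missed a few of the large simulated decreases, more than the first pass mark allowed, and the mark was then lowered with the rule unchanged. The simulated noise had fixed sizes and was drawn independently for RMA and MAS5, so the rule's error in these data was not measured. The members, lists and rules were chosen with earlier results of these data known. All members are named. Of the other pathway genes, those counted and up to 3 more per list with the largest absolute RMA difference are named. AHR, SULT1A2, SULT1A3, ADH5, ADH1A, ADH1B, ADH1C, ADH7 and the markers of cell types were named outside that rule. Python 3.11.15 and pandas 2.3.3 were used.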

Additional observations from a re-analysis of the deposited data

How the results depend on the processing

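With 1 array per population no replicate could be left out. UGT2B4 and NNMT were counted as lower in CD133+ under every alternative run, but the probe set alternatives cannot change UGT2B4, which has 1 probe set. In the run without _x_at and _s_at probe sets, where ADH4 had no probe set left, 2 of 21 members above the floor were lower. The share of all genes was 1.1%. With the median over probe sets 3 of 21 were lower (UGT2B4, SULT1A1 and NNMT), beside 0.994% of all genes. Members counted as lower numbered 6 in MAS5 alone and 7 at 1.5-fold, where 5.6% and 4.17% of all genes were lower. They numbered 4 or 5 elsewhere, beside 0.779% to 1.35%. Without _x_at and _s_at probe sets the RMA difference of SULT1A1 was 0.19 and that of SULT1C2 0.0255. Members counted as higher numbered 2 (CYP27A1 and CYP26A1) in MAS5 alone, 1 (CYP24A1) in RMA alone and 3 (all of these) at 1.5-fold, beside 7.65%, 2.39% and 5.32% of all genes. The median difference turned to 0.0513 in MAS5 alone and to 0.0377 with 50 added to MAS5 values. Members above the floor numbered 16 at the 75th percentile and 21 to 29 at the other floors and probe set choices. The floor in both populations was an alternative chosen after seeing the data. Of the 27 members above the floor, 6 had the other sign in MAS5. The median over probe sets changed the value of 11 and the sign of 1 (CYP2U1). Leaving out _x_at and _s_at probe sets left a value for 22 of the 27. Of these 22, 5 changed in value and 3 in sign (SULT1A1, SULT1C2 and CES2). Of the pair of probe sets left for SULT1C2, both under the floor, the one with the higher RMA mean differed by 0.03 and the other by -0.41. The causes were not tested.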

Other observations

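Values of some related genes that lie close together in the RefSeq order are given side by side. SULT1C2 had RMA values of 4.98, under the floor, in CD133+ and 6.55 in CD133- cells. SULT1C4, with 3 annotated genes between it and SULT1C2 on chromosome 2, had 7.51 in CD133+ and 6.19 in CD133-. NAT1 and NAT2 both had lower values in CD133+ cells, at RMA differences of -0.9995 and -1.59. In the alcohol dehydrogenase cluster, the probe sets above the floor differed by -1.75 and -0.44 for ADH4 and by -0.86 and -0.82 for ADH6, so their order depends on the probe set. Those of ADH5, the glutathione-dependent formaldehyde dehydrogenase found in most tissues, differed by -0.37 and 0.32, in opposite directions. ADH1A, ADH1B, ADH1C and ADH7 were under the floor in both populations. These genes were chosen after their values were seen.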
